A study of Mus musculus with 2 samples.

Results

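The genes described here make ubiquitin, activate it, or carry ubiquitin-tagged proteins to the proteasome. They are the ubiquitin genes Ubb and Rps27a, the activating (E1) enzyme genes Uba1 and Uba6, and the shuttle receptor genes Rad23b, Ubqln1 and Ubqln2. They were chosen by name, and 7 of 34745 rows in the count tables matched, 1 row for each gene. The RNA came from regulatory T (Treg) cells, CD4 T cells that express Foxp3 and restrain immune responses, sorted out of spleen from C57BL/6 mice aged 2 weeks by their CD4 and by the yellow fluorescent protein (YFP) that reports Foxp3. The wild-type library came from poh1+/+ Foxp3Cre+ mice and the knockout library from poh1fl/fl Foxp3Cre+ mice, so that both carried the Foxp3-driven Cre and differed in the floxed alleles. POH1 is the product of Psmd14, the proteasome lid enzyme that takes ubiquitin chains off proteins as they are degraded. There was 1 library per genotype, holding 18124611 (wild type) and 14544212 (knockout) counts. No difference here has a replicate check. Pooling of mice is not stated in the sources used here, but each library held transcripts of both sexes, as described below.

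Ubiquitin is a small protein that is joined to other proteins as a tag, often in chains, and chains of some linkages send the tagged protein to the proteasome. An E1 enzyme activates ubiquitin with ATP and passes it to a conjugating (E2) enzyme, which works with a ligase (E3) to attach it. Ubb is a polyubiquitin gene, which encodes head-to-tail repeats of ubiquitin, and Rps27a is a fusion gene, which encodes ubiquitin joined to a ribosomal protein. Deubiquitinases cut these precursors and also recover ubiquitin at the proteasome. Shuttle receptors bind the proteasome with a ubiquitin-like domain and ubiquitin chains with another domain.

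The same ubiquitin protein is written in different bases in Ubb and Rps27a, which lets sequencing reads be assigned to either gene. The first 60 coding bases of the longest coding transcript of each gene (GENCODE M21, mm10, 5′ to 3′) are shown for this reason, with capitals where a base differs from that of Ubb:
Ubb: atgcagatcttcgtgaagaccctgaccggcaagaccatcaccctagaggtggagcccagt
Rps27a: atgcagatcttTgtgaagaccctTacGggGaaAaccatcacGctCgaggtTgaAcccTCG
Over the 228 bases of the first ubiquitin unit, which encode the same 76 amino acids in both genes, Rps27a differed from Ubb at 44 bases, an identity of 80.7%. The reading frame held 4 complete ubiquitin units in Ubb and 1 in Rps27a. Pseudogene copies share more sequence than this. Of all windows of 50 bases in the longest coding transcript, 39.0% in Ubb and 28.0% in Rps27a were found in no other annotated gene. The share was 99.2% in Uba1 and 100% in Uba6, Rad23b, Ubqln1 and Ubqln2. The counts of Ubb and Rps27a therefore depend on how reads that match several places were handled, not stated in the sources used here, and their absolute levels are uncertain.

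Members of the group differed by less than 1.5-fold between the 2 libraries, and Ubb stood furthest from a ratio of 1. A gene was called higher or lower where the exact 95% counting interval of its ratio of knockout to wild type lay wholly beyond 1.5-fold. The rule was applied to genes that reached 1 CPM (a count scaled to a common library size) in at least 1 library. By this rule 0 of the 7 genes were called, all 7 of which passed the filter. The background share called over 13464 measured genes was 21.9%, with 9.58% higher and 12.3% lower. The intervals cover counting error and leave out differences between mice. The median log2 ratio of the 7 genes was -0.10, against -0.01 over all measured genes. Of the 7 genes, 6 lay within the middle 50% of measured genes, between log2 ratios of -0.44 and 0.39, and Ubb lay above it. An interval that left out a ratio of 1 was seen in 4 of the 7 genes (background 69.6%). It lay wholly above 1 in 1 gene, Ubb (background 34.3%), and wholly below 1 in 3 genes, Uba1, Uba6 and Rad23b (background 35.3%). These shares depend on depth. Among 5767 genes with 606 to 11839 wild-type counts, the range of the 7 genes, 17.3% were called. The interval held 1 in 20.7% of those genes and in 3 of the 7.

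**Figure D1:**
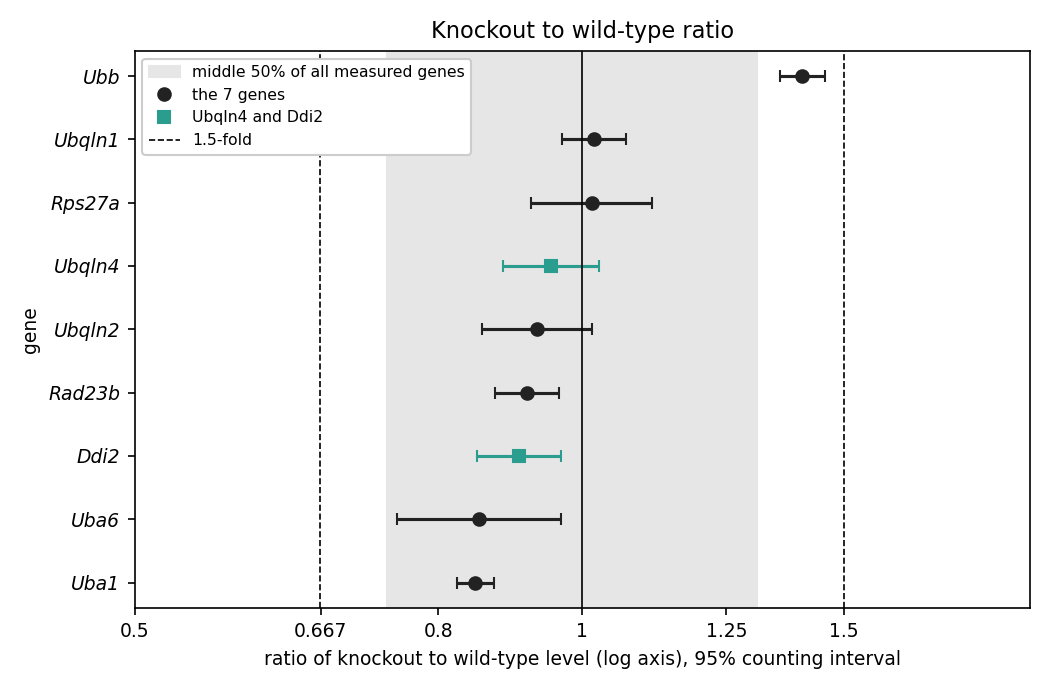
The ratio of knockout to wild-type level (log axis) is plotted for the 7 genes (black circles) and for the shuttle genes Ubqln4 and Ddi2 (green squares), with 95% counting intervals as bars, dashed lines at 1.5-fold and the middle 50% of all measured genes in grey. Ubb at 1.41 stands above the others, Uba1 at 0.847 is the lowest, and no interval lies wholly beyond 1.5-fold.

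Ubb, a polyubiquitin gene known to be induced by cell stress, is a protein-coding gene of chromosome 11 (62551171 to 62553213, plus strand, mm10, GENCODE M21). It had 6015 wild-type and 6789 knockout counts, or 332 and 467 CPM after scaling. Ubb was thus 1.41-fold higher in the knockout library (1.36 to 1.46), a log2 ratio of 0.49 that exceeded those of 79.4% of measured genes. The whole interval lay short of 1.5-fold. No exon of another annotated gene overlaps those of Ubb.

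Rps27a (chromosome 11, 29545846 to 29548109, minus strand), which encodes ubiquitin joined to a protein of the small ribosomal subunit, was at nearly the same level in the 2 libraries. It had 993 wild-type and 809 knockout counts. These were 54.8 and 55.6 CPM, a ratio of 1.01 (0.924 to 1.11), and the interval holds 1. Rps27a shares 8.11% of its exon length with Clhc1.

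Rps27a was set beside the genes of the small ribosomal subunit, to which its second product belongs. Of 33 measured genes in that list, 0 were called higher (background 9.58%) and 1, Rpsa, lower (background 12.3%). The median log2 ratio was 0.18. Rps27a, at 0.02, was 10 from the lowest of the 33. Rpsa, at 2655 CPM and 1650 CPM, was 1.61-fold lower with the knockout (1.58 to 1.63). The counts of this list ran from 38 to 48107 in the wild-type library, and 10 genes had fewer than Rps27a.

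The sequence upstream of Ubb is shown because Ubb stood furthest from a ratio of 1 among the 7 genes. The RefSeq promoter table (GRCm38.p6) held 4 of the 7 genes, and lacked Rps27a, Uba6 and Ubqln2. The 250 bases before the first Ubb start site, chr11:62550921-62551170 on the plus strand, read as follows, with a CCAAT box in capitals:
Ubb upstream: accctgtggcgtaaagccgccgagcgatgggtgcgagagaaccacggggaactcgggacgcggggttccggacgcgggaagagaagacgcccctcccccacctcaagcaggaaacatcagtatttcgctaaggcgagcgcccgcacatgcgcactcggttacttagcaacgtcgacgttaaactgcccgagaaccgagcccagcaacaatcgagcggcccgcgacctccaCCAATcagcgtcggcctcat
The letters CCAAT, searched on both strands, occurred 1 time here and in 33.8% of 32851 promoter windows of this length. The letters GAANNTTC or TTCNNGAA, the core of a heat shock element, occurred 0 times here and in 12.8% of windows. The letters TGACNNNGC, the core of an antioxidant response element, on both strands, occurred 0 times in this first window and in 10.2% of all windows. RefSeq gives Ubb a second start site inside the gene, and the window before it (chr11:62551481-62551730) held 1 match to TGACNNNGC, at position -29 from that start, and 0 to CCAAT and to the heat shock element core. A match or its absence describes these letters in this window alone.

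The E1 enzyme genes were lower by nearly the same factor. Uba1 (chromosome X, 20658326 to 20683179, plus strand), the main E1 of ubiquitin, had 11839 wild-type and 8054 knockout counts. These were 653 and 554 CPM, 1.18-fold lower in the knockout library (1.15 to 1.21). Uba6 (chromosome 5, 86109287 to 86172803, minus strand), an E1 that loads the E2 of Ube2z, had 606 and 415 counts, or 33.4 and 28.5 CPM. It was 1.17-fold lower (1.03 to 1.33). The counts of Uba1 were 19.5 times (wild type) and 19.4 times (knockout) those of Uba6. Uba6 accordingly held 4.87% of their summed counts (4.50% to 5.26%) with wild type and 4.90% (4.45% to 5.38%) with knockout, with overlapping intervals. On the deposited FPKM, which are per length, the share was lower, at 3.003% (wild type) and 3.02% (knockout).

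Mice also carry Uba1y, a copy of the E1 gene on the Y chromosome. It had 0 counts in both libraries, below the floor of 3 counts, which corresponds to 0.166 CPM (wild type) and 0.206 CPM (knockout). Uba1 and Ubqln2 are on the X chromosome. Each library held both Xist, a transcript of female cells, and Ddx3y, a gene of the Y chromosome, and so RNA of both sexes. The balance differed somewhat, with wild-type and knockout CPM of 958 and 1036 for Xist and of 50.9 and 35.1 for Ddx3y. The part of this balance in the ratios of Uba1 and Ubqln2 was not tested.

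The shuttle receptor genes Rad23b, Ubqln1 and Ubqln2 were at ratios between 0.918 and 1.02. Rad23b (chromosome 4, 55350043 to 55392237, plus strand) encodes a shuttle that also serves as a partner of XPC in DNA repair. It had 3715 wild-type and 2739 knockout counts, or 205 and 188 CPM, 1.09-fold lower (1.04 to 1.14). The interval lies wholly below 1.

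The ubiquilin genes differed little. Ubqln1 (chromosome 13, 58176156 to 58215653, minus strand), which encodes a widely expressed ubiquilin, had 3569 wild-type and 2919 knockout counts. These were 197 and 201 CPM, a ratio of 1.02 (0.970 to 1.07). Ubqln2 (chromosome X, 153498227 to 153501570, plus strand), whose human counterpart is mutated in some families with motor neuron disease, is annotated as a single exon of 3344 bases. It had 1257 and 941 counts, or 69.4 and 64.7 CPM, a ratio of 0.932 (0.856 to 1.02). Both intervals hold 1. The share of Ubqln2 in the counts of the 2 ubiquilin genes was 26.05% (24.8% to 27.3%) and 24.4% (23.03% to 25.8%), with overlapping intervals.

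**Figure D2:**
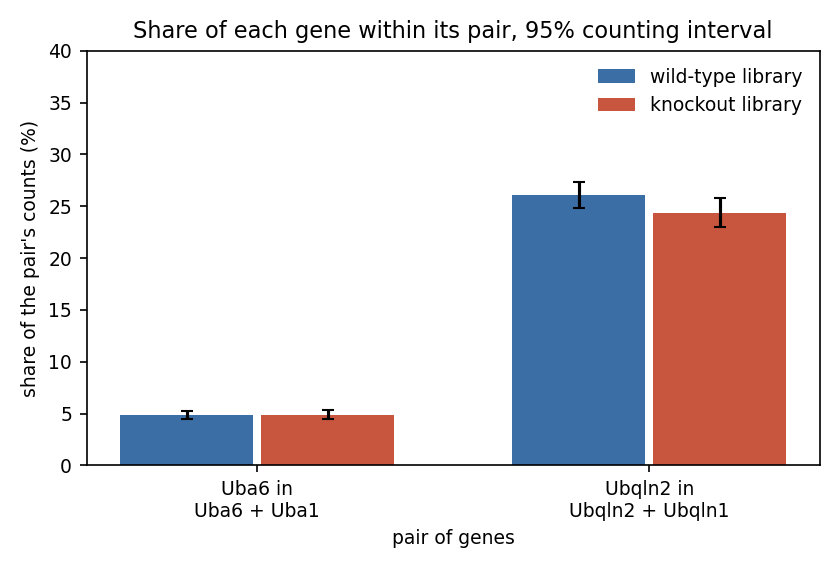
Bars give the share of a gene in the summed counts of itself and its sister gene (per cent), in the wild-type (blue) and knockout (red) library, with exact 95% counting intervals. The share of Uba6 is 4.87% and 4.90%, that of Ubqln2 is 26.05% and 24.4%, and the intervals of the libraries overlap in both pairs.

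Further shuttle genes showed small differences as well. Ubqln4 was at 89.9 and 85.7 CPM, a ratio of 0.953 (0.885 to 1.03). Ddi2, a shuttle with a protease domain that cuts the transcription factor NRF1, was at 120.6 and 109 CPM, 1.10-fold lower (1.03 to 1.18). Of the 5 shuttle receptor genes described, 0 were called in either direction (background 21.9%), with a median log2 ratio of -0.10.

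Per exon length, the 7 genes spanned a wide range of levels and had the same order in both libraries. In CPM per kilobase of exons, the wild-type levels were 198 for Ubb, 136 for Uba1, 44.7 for Ubqln1, 35.8 for Rad23b, 27.8 for Rps27a, 20.7 for Ubqln2 and 4.10 for Uba6. In the knockout library they were 279, 115, 45.5, 32.8, 28.2, 19.3 and 3.50 in the same order. In the wild-type library the counting intervals of neighbours in this order did not overlap, and the smallest gap was between Rps27a (26.1 to 29.6) and Ubqln2 (19.6 to 21.9). In the knockout library they did not overlap either, with the smallest gap between Rad23b (31.6 to 34.1) and Rps27a (26.3 to 30.2). These intervals cover counting error alone, and not how reads that match several places were handled. Of the sequence windows described above, only 39.0% in Ubb and 28.0% in Rps27a were found in no other annotated gene. The places of Ubb and Rps27a in this order are therefore uncertain. The deposited FPKM, the authors' own scaling by length and depth, used other lengths for all of the 7 genes but Ubqln2. The lengths were longer for Ubb and Rps27a, 2389 and 2764 bases against 1675 and 1972 bases of exons in the annotation. They were also longer for Uba1, Uba6 and Rad23b. For Ubqln1 the length was shorter, 3686 against 4406 bases. On the FPKM scale Ubb was at 139 and 195, Uba1 at 122 and 103 and Uba6 at 3.77 and 3.22 FPKM. Rps27a (19.8 and 20.1 FPKM) and Ubqln2 (20.7 and 19.3 FPKM) changed places between the libraries, so their order is not firm. Ubb exceeded 98.4% of measured genes by FPKM in the wild-type library and Uba6 exceeded 42.8%. The place of Ubb on the FPKM scale carries the same uncertainty about shared sequence.

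**Figure D3:**
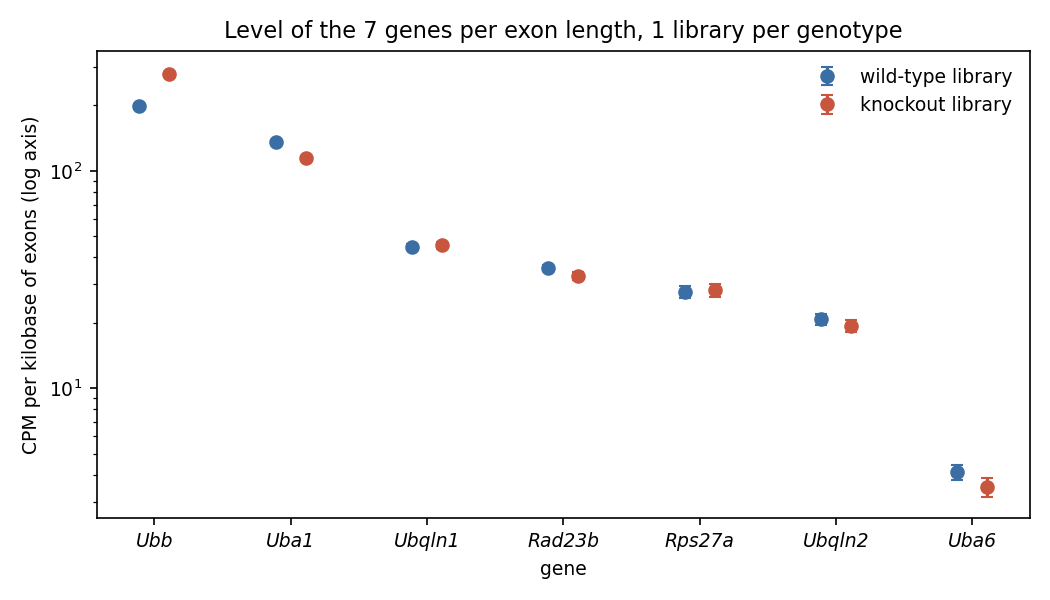
Points give the level of each of the 7 genes in CPM per kilobase of exons (log axis) in the wild-type (blue) and knockout (red) library, with exact 95% Poisson counting intervals as bars, many smaller than the points. Levels run from 198 for Ubb to 4.10 for Uba6 in the wild-type library, and the knockout point lies clearly above the wild-type point in Ubb alone. The bars do not cover how reads that match several places were handled, which leaves the levels of Ubb and Rps27a uncertain.

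Genes of the steps around these 7 were described from lists by the same rule. The enzymes that activate other ubiquitin-like proteins gave 1 of 8 genes higher (background 9.58%) and 0 lower (background 12.3%). Their median log2 ratio was -0.08. The 1 higher gene was Uba7, the E1 of the interferon-induced modifier ISG15, at 155 CPM (wild type) and 355 CPM (knockout), 2.29-fold higher (2.19 to 2.40). Uba3 and Nae1, the subunits of the E1 of NEDD8, were at ratios of 1.36 (1.24 to 1.495) and 1.33 (1.22 to 1.46). Sae1 and Uba2, the subunits of the E1 of SUMO, were at 0.672 (0.625 to 0.721) and 0.823 (0.779 to 0.869). In point ratio the E1 genes of ubiquitin lay between those of NEDD8 and SUMO. The interval of Uba2 overlaps those of Uba1 (0.824 to 0.872) and Uba6 (0.751 to 0.968), so their order is not firm.

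Among 10 genes of ubiquitin-like modifiers, 1 was called higher (background 9.58%) and 0 lower (background 12.3%). Their median log2 ratio was 0.12. Isg15 was at 10.4 and 24.7 CPM, 2.37-fold higher in the knockout library (1.98 to 2.84). Nedd8, the nearest relative of ubiquitin, was at 42.7 and 40.1 CPM, a ratio of 0.940 (0.843 to 1.05).

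The 3 proteasome subunit genes with a ubiquitin- or shuttle-binding role were all at higher ratios than any of the 7 genes. Of these 3, 1 was called higher (background 9.58%) and 0 lower (background 12.3%), with a median log2 ratio of 0.65. Psmd4, a ubiquitin receptor, was at 111 and 188 CPM, 1.70-fold higher in the knockout library (1.60 to 1.80). Adrm1, another ubiquitin receptor, was at a ratio of 1.57 (1.45 to 1.71), and Psmd2, which docks shuttles, at 1.56 (1.49 to 1.63). The interval of Adrm1 just overlaps that of Ubb (1.36 to 1.46). Psmd14 itself was at 89.4 and 31.8 CPM, 2.81-fold lower in the knockout library (2.53 to 3.12), in the direction of its label.

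Of 6 deubiquitinase genes that mature or recycle ubiquitin, 0 were called higher (background 9.58%) and 1 lower (background 12.3%). Their median log2 ratio was 0.05. Uchl3 was at 32.5 and 17.3 CPM, 1.88-fold lower (1.62 to 2.18). Uchl5 and Usp14, which act at the proteasome, were at ratios of 0.702 (0.625 to 0.789) and 1.20 (1.10 to 1.32). Usp5, which takes apart free ubiquitin chains, was at 1.14 (1.07 to 1.21).

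Of 12 genes of enzymes that take ubiquitin from UBA1 or UBA6, 0 were called higher (background 9.58%) and 1 lower (background 12.3%). Their median log2 ratio was -0.16. Ube2l3, an E2 used by HECT and RBR ligases, had 1074 wild-type and 170 knockout counts, or 59.3 and 11.7 CPM. It was 5.07-fold lower (4.31 to 6.00), the lowest ratio of the ubiquitin pathway genes listed. Exons of Ube2l3 overlap those of Ydjc over 28.6% of their length. Ube2z, the E2 served by UBA6, was at a ratio of 0.946 (0.891 to 1.00), and Birc6, a large ligase that works with UBA6, at 1.32 (1.29 to 1.36).

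Heat shock genes, other protein stress genes to which Ubb can be compared, had ratios below 1. Of 12 measured genes, 0 were called higher (background 9.58%) and 8 lower (background 12.3%), with a median log2 ratio of -0.74. The list holds Hspd1 and Hspe1, which encode the chaperonins of mitochondria. Without them, 0 of 10 genes were called higher and 7 lower, and the median log2 ratio was again -0.74. Hsph1 was at 136 and 43.4 CPM, 3.14-fold lower (2.87 to 3.43), and Hspa1a at 4.03 and 1.37 CPM, 2.93-fold lower (1.77 to 5.08). All 12 log2 ratios were below 0, against 0.49 for Ubb.

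**Figure D4:**
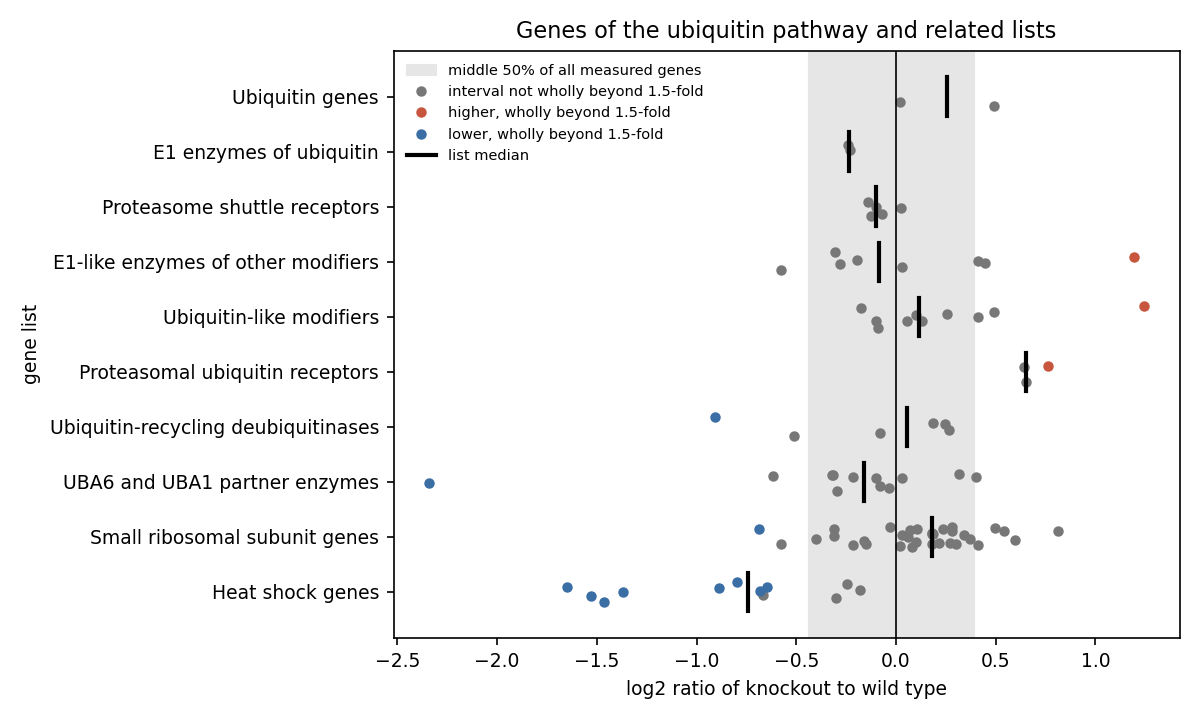
Each point is the log2 ratio of knockout to wild type of a measured gene, by list, with red and blue for genes whose interval lies wholly beyond 1.5-fold, a black bar for the list median and grey for the middle 50% of all measured genes. The lists of ubiquitin genes, E1 enzymes and shuttle receptors hold no coloured point, while the heat shock genes lie to the left of 0.

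Markers of other cells differed between the libraries, in the same bulk RNA from which the 7 genes were counted. In bulk RNA, fewer cells of a type and less RNA per cell cannot be told apart. The background for the counts that follow is 9.58% called higher and 12.3% called lower over all measured genes. Treg and T cell markers summed to 4763 and 5007 CPM, with 2 of 7 higher (Foxp3 and Il2ra) and 2 lower (Ctla4 and Ikzf2). B cell markers summed to 135 and 36.4 CPM, with 6 of 6 lower, and erythroid markers to 90.5 and 22.6 CPM, with 7 of 7 lower. CD8 T cell and NK cell markers summed to 19.9 and 48.2 CPM, with 2 of 3 measured higher (Cd8a and Cd8b1), and Ncr1 at 0 in the knockout library. Myeloid markers summed to 139 and 175 CPM, with 1 of 7 measured higher and 1 lower, and S100a8 at 0 in the knockout library. Their part in the ratios of the 7 genes was not tested.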

How the data were processed

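Libraries were made with the Illumina TruSeq RNA v2 kit from total RNA, per the labels' protocols. TopHat, HTSeq and mm10 are named, per the submitters' processing notes, with no version, and the annotation and the treatment of multi-mapped reads are not stated in the sources used here. The authors deposited raw counts and FPKM values per gene name. Counts were scaled with TMM (edgeR 4.0.16, R 4.3.3). With 1 library per genotype there was no replicate spread to fit, so there are no p-values. Each ratio carries a 95% interval from the exact (Clopper-Pearson) binomial limits of the 2 counts, and a count its exact Poisson interval. Before taking log2, 0.5 counts were added, scaled to the library sizes. The floor for a gene at 0 is 3 counts. The kit counts reads, not molecules, so these limits hold for counting error alone. Positions, exon overlap, reading frames and 50-base windows come from GENCODE M21 (mm10). Named genes were the 7 genes, Ubqln4, Ddi2, Psmd14 and genes of the lists, with each list counted apart from a few genes that are not reported here; Uba1y, Xist and Ddx3y were added after their values were seen. Of repeated gene names the row of highest count was used. The members and lists were chosen with earlier results of these data known. Alternatives covered scaling, filter, fold threshold and the deposited FPKM. Python 3.11.15, numpy 2.4.6 and scipy 1.17.1 were used.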

Additional observations from a re-analysis of the deposited data

How the results depend on the processing

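The ratios of the 7 genes were recomputed with total counts, upper-quartile factors, DESeq2 1.42.0 size factors, totals without mitochondrially encoded genes, totals without called genes (added after the data were seen) and the deposited FPKM, and each stayed within its counting interval. The FPKM ratios repeat those of total counts, because gene length cancels, and are no separate check. Each of the other settings moved all 7 genes together. The furthest move was -0.04 in the log2 library size of the knockout, with upper-quartile factors. Setting the median of the small ribosomal subunit genes to 0 moved the knockout level by 0.18 on the log2 scale. It gave ratios of 1.24 for Ubb, 0.895 for Rps27a, 0.748 for Uba1, 0.810 for Rad23b, 0.899 for Ubqln1 and 0.823 for Ubqln2, so that Rps27a and Ubqln1 went from above to below 1; Uba6, at 0.753, stayed within its interval. Over all measured genes, 1290 were called higher and 1659 lower. These counts were 585 and 892 for intervals wholly beyond 2-fold, 2346 and 2651 for the ratio itself beyond 1.5-fold, and 832 and 1046 among genes at 10 CPM or more. By upper-quartile factors, 2 of the 3 proteasomal receptor genes were called in place of 1 and 6 heat shock genes in place of 8. For intervals wholly beyond 2-fold, a rule added after the data were seen, Isg15, Psmd4, Uchl3 and Rpsa were not called, and 2 heat shock genes (Hsph1 and Bag3) were called in place of 8; Uba7 and Ube2l3 were called under both rules. Depth left the Uba6 ratio with the widest interval of the 7 genes. No paired analysis was possible because there is 1 library per genotype.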
